A study of Mus musculus with 6 samples.

Results

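The genes of potassium channels were examined in the brains of old wild-type (WT) and Sgo1-/+ mice. They were taken as every protein-coding gene of the deposited table whose symbol begins with Kcn followed by a letter. These were 95 genes of 38087, with 94 symbols in 21 subfamilies, since Kcnb2 was listed under 2 Ensembl identifiers. By subfamily they were grouped into 41 pore subunits of voltage-gated (Kv) channels, 15 inward rectifiers (Kcnj) and 14 two-pore-domain channels (Kcnk). A further 8 were grouped as calcium- and sodium-activated channels and 17 as auxiliary and regulatory subunits.

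Sgo1 protects the cohesion of sister chromatids, and Sgo1-/+ mice, which are haploinsufficient for it, are a model of chromosome instability whose old brains the study examined for Alzheimer-like pathology. RNA from 1 hemisphere of each of 6 untreated C57BL6 mice of 24 months was sequenced, 3 WT and 3 Sgo1-/+, and each mouse gave 1 library. The methods describe the tissue as cerebrum that includes cortex and hippocampus and leaves out olfactory bulb, cerebellum and medulla. Sgo1-/+ mice carry the mutant allele in the whole animal and not in the brain alone. Male mice gave WT replicate 1 and Sgo1-/+ replicate 2, and females gave the remaining 4 libraries. All WT libraries were sequenced in run 258 and all Sgo1-/+ libraries in run 259, so run and genotype cannot be told apart.

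Potassium channels let potassium ions leave or enter the cell along their gradient and so set the resting potential, the shape of the action potential and the rate of firing. Kv pore subunits and inward rectifiers assemble as tetramers around a pore, whereas two-pore-domain subunits work as dimers. Auxiliary subunits change the gating, the location and the amount of these channels. Many members are restricted to particular neurons or glia, and others, such as the silent Kv subunits of the Kcnf, Kcng, Kcns and Kcnv subfamilies, form a channel only together with a Kcnb subunit.

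Total estimated counts per library ranged from 11123917 to 12505561. Sgo1, the targeted gene, had estimated counts of 0, 7 and 0 in WT and of 4, 2 and 0 in Sgo1-/+, and at this depth a count of 0 allows up to 3 counts, by counting error only, so the genotype could not be checked by its RNA. WT replicate 1 did not match the described tissue. Its summed level of 8 cerebellar granule cell markers was 18810 normalized counts against 1026 to 1999 in the other 5 libraries, that of 5 Purkinje cell markers 10900 against 417 to 784, and that of 11 brain stem markers 4413 against 13.2 to 57.9, with every one of these markers highest in WT replicate 1. Normalized counts are estimated counts scaled to the libraries' mean size. In the other 5 libraries the Hox genes of the brain stem list were at or near 0, and Gabra6, which defines cerebellar granule cells, was at 0 to 72.6 against 2168 in WT replicate 1. All 9 striatal markers found were lowest in WT replicate 1, with a sum of 4449 against 14720 to 34680, as were 7 of 8 cortical markers, with a sum of 4034 against 7737 to 9525. The results below are therefore given with and without this library, whose loss leaves 2 female WT mice. The other libraries were not alike in tissue markers either. The 5 markers of the olfactory bulb, which the methods also leave out, summed to 1802 and 1422 in WT replicates 2 and 3. They summed to 818 in Sgo1-/+ replicate 1 and to 99.4 to 172 in the rest. Without WT replicate 1, the WT group thus consists of the libraries with the highest olfactory bulb sums. In RNA from whole tissue, fewer cells of a type and less RNA per cell cannot be told apart.

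Levels were compared between genes as normalized counts per kilobase of exon, the median over the 6 libraries being used, for the 93 genes with an exon length of their own. A median of at least 100 was reached by 33 genes and 25 stayed under 10. The highest levels were those of Kcnab2 (940), a cytoplasmic subunit that binds Kcna channels, Kcnj4 (782), a strong inward rectifier, Kcna1 (749), a low-threshold channel of axons, Kcnip2 (551), a calcium-binding subunit of Kcnd channels, Kcnj10 (539), the potassium-buffering channel of astrocytes, and Kcnk1 (527), a leak channel. By class the median of these levels was 79.9 over the Kv pore subunits, 51.0 over the inward rectifiers, 46.8 over the auxiliary subunits, 45.7 over the calcium- and sodium-activated channels and 13.2 over the two-pore-domain channels. Kcnj1, a channel of the kidney, and Kcnk16, a channel of the pancreatic islet, had a count of 0 in every library.

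**Figure D1:**
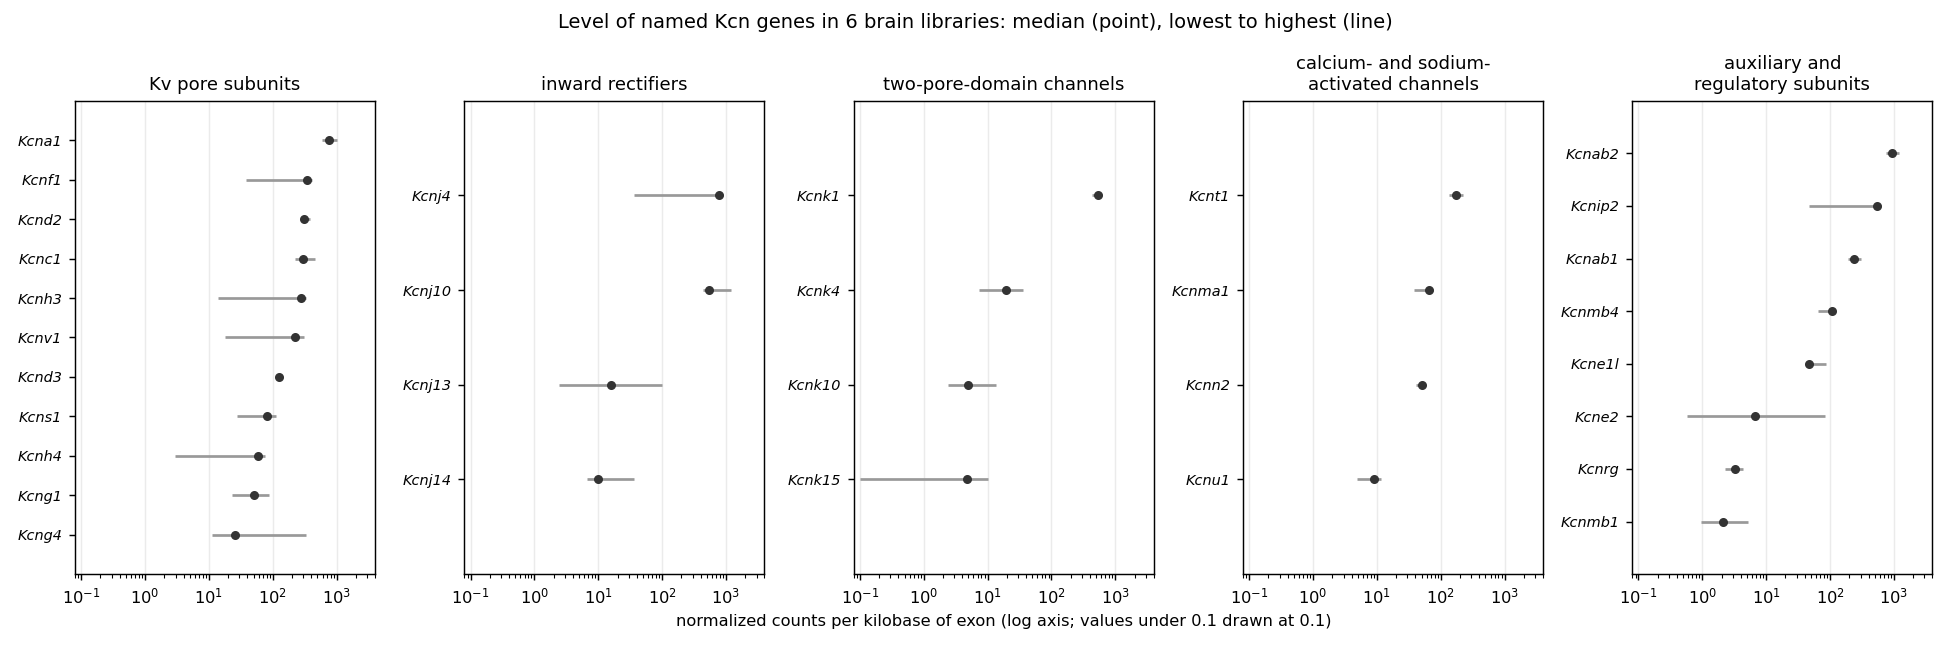
Level of the named Kcn genes in normalized counts per kilobase of exon on a log axis, by class, with the point at the median of 6 libraries and the line from the lowest to the highest; both Kcnb2 identifiers are left out for want of an exon length of each. The levels reach up to the 940 of Kcnab2, and the long lines to the left at Kcnj4, Kcnip2, Kcnf1, Kcnh3, Kcnv1 and Kcnh4 end in WT replicate 1.

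Of the 95 genes, 80 passed the filter on low counts and were tested, among 16337 genes in all. The 15 untested genes were low in every library, and 6 of them had 3 counts or fewer in each library. The spread of the members lay largely in 1 library. The ratio of the highest to the lowest library, with counts under 3 set to 3, had a median of 2.6 over the 80 genes and of 1.62 over all genes tested. Without WT replicate 1 these medians were 1.55 and 1.4. In those 5 libraries Kcne1l, a small auxiliary subunit, varied 1.09-fold and Kcnip4, a calcium-binding subunit, 1.11-fold, while Kcne2 varied 48.8-fold and Kcnj13 40.9-fold.

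In WT replicate 1, 26 of the 80 genes were at least 2-fold below the median of the other 5 libraries, against 8.51% of all genes tested, and 10 were at least 2-fold above it, against 4.99%. In each of the other libraries fewer of the 80 genes lay that far from the median. WT replicate 2 had 1 below (1.9% of all genes) and 4 above (2.32%), and WT replicate 3 had 3 below (2.71%) and 2 above (1.14%). Sgo1-/+ replicate 1 had 2 below (1.52%) and 2 above (1.98%), replicate 2 had 6 below (3.53%) and 2 above (0.912%), and replicate 3 had 2 below (2.89%) and 5 above (1.79%). Of the members low in WT replicate 1, 11 were at least 4-fold and 6 at least 8-fold lower. The Kv pore subunits held 18 of the 26, out of 37 tested. The summed level of the 95 genes hardly showed this, with 57570 normalized counts in WT replicate 1, 58960 in replicate 2, 70570 in replicate 3, and 62300, 63120 and 68230 in Sgo1-/+.

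**Figure D2:**
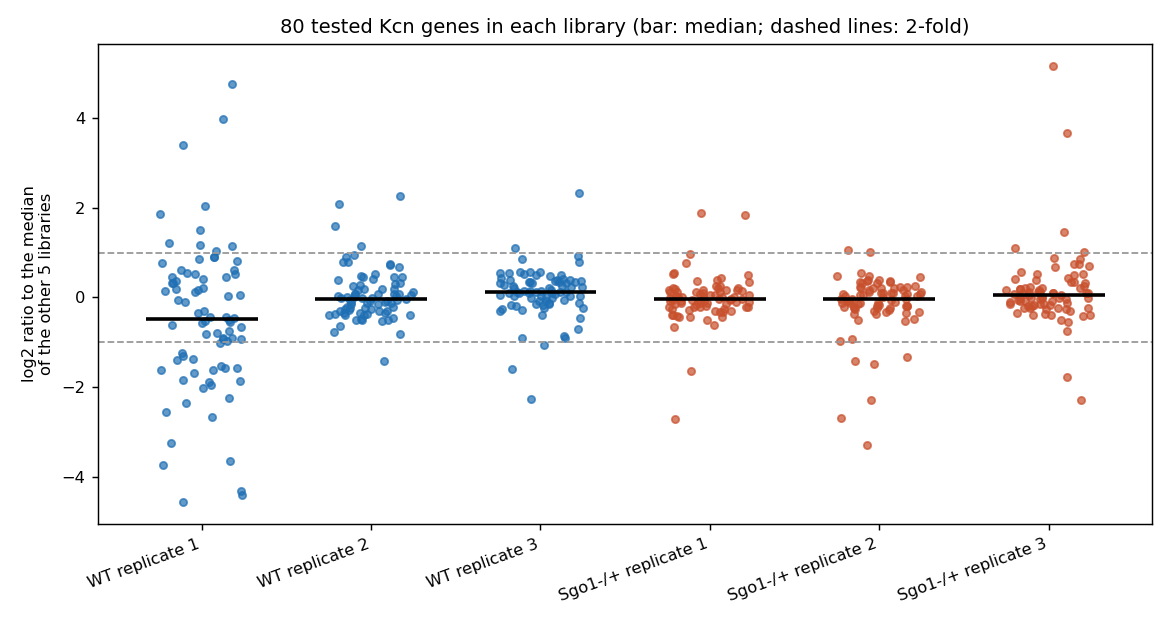
Each point is 1 of 80 tested Kcn genes in 1 library, with its log2 ratio to the other 5 libraries' median on the y axis, a bar at the median and dashed lines at 2-fold. WT replicate 1 has 26 genes under the lower line and 10 above the upper one, and no other library has more than 6 and 5.

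For 5 genes that stood out as low or high in WT replicate 1, the sequence of the 250 bases before the RefSeq start of transcription is shown. Of the 95 members, 69 had such a window in RefSeq (GRCm38.p6). The Kcnh4 window, with its marked motifs, lies partly within the gene of the deposited table, which reaches to chr11:100759942. Capitals mark a GC box (GGGCGG) or an E-box (CANNTG), searched on both strands, and none of these marked motifs overlap. Kcnj4, Kcnh4, Kcnip2 and Kcnf1 were among the lowest in WT replicate 1 and Kcng4 among the highest. Kcnh3 and Kcnv1 were also among the lowest, and their windows are not shown.
Kcnj4, chr15:79505242-79505491, minus strand: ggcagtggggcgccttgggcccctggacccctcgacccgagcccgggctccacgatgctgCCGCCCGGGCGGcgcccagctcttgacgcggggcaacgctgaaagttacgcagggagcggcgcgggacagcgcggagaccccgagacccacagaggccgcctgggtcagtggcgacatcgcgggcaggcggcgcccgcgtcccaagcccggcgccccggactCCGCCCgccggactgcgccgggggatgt
Kcnh4, chr11:100759779-100760028, minus strand: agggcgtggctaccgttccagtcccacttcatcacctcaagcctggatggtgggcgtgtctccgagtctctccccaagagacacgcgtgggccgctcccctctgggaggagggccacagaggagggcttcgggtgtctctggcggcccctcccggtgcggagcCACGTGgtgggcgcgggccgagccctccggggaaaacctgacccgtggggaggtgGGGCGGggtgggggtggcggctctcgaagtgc
Kcnip2, chr19:45816064-45816313, minus strand: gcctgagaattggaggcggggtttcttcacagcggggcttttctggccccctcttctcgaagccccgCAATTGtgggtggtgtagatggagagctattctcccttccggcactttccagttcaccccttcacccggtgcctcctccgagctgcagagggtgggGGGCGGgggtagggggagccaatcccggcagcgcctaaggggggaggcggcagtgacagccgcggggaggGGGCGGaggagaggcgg
Kcnf1, chr12:17176889-17177138, minus strand: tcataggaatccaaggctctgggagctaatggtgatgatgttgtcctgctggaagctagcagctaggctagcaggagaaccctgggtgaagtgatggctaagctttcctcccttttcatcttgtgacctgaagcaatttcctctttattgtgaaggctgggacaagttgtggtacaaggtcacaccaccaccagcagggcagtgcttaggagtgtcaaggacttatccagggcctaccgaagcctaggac
Kcng4, chr8:119635681-119635930, minus strand: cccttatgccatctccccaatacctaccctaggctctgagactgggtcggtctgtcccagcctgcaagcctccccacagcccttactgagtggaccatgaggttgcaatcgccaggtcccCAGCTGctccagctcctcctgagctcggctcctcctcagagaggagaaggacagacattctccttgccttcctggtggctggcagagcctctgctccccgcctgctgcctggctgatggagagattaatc

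The windows differ among genes with the same pattern. Kcnj4 holds 3 GC boxes and 35 CG dinucleotides, Kcnh4 1 GC box and 20, Kcnip2 2 GC boxes and 15, and Kcnf1 no GC box and 1 CG dinucleotide, where the median of all windows is 6. Kcng4 has 4 CG dinucleotides, no GC box and 1 E-box. A GC box was found in 14 of the 18 genes with a window that were at least 2-fold low in WT replicate 1, in 4 of the 6 that were high, and in 32.7% of all 32851 windows. An E-box was found in 12 of 18, in 3 of 6 and in 66.2% of all windows. The TATA box (TATAAA), which 12.4% of all windows hold, was found in 0 of 18 and 1 of 6, and the cAMP response element (TGACGTCA), which 1.5% hold, in 0 of 18 and 0 of 6. The Kcn counts are of tested genes, whereas the shares are of windows and were not limited to tested genes. They are therefore not a like base. Whether any motif goes with the level in WT replicate 1 was not tested.

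Among the Kv pore subunits, the members of the ether-a-go-go family named Kcnh3 and Kcnh4 were far lower in WT replicate 1. Kcnh3 stood at 78.6, 1706 and 1913 normalized counts in WT replicates 1 to 3, in that order here and below, and at 1675, 1504 and 1407 in Sgo1-/+ replicates 1 to 3. Kcnh4 stood at 11.8, 225 and 234 in WT and at 252, 293 and 203 in Sgo1-/+. Relative to the median of the other 5 libraries both were at about 0.05, with ratios of 0.0469 and 0.0504. Kcnh2, a slowly closing member of the same family, was highest there, at 1157 against 497 to 703.

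Most tested silent subunits were low in WT replicate 1. Kcnf1, Kcng1, Kcng2, Kcng3, Kcns1, Kcns2 and Kcnv1 were at least 2-fold below the median of the other 5 libraries there. Kcng4 and Kcns3 were above it. Kcnf1 had 184, 1945 and 1875 normalized counts in WT and 1491, 1738 and 1320 in Sgo1-/+. Kcnv1 had 82.6, 786 and 1410 in WT and 948, 1314 and 1100 in Sgo1-/+. Both were lowest in WT replicate 1. Kcng4 showed the reverse, with 1269, 42.9 and 114 in WT and 80.5, 60.3 and 222 in Sgo1-/+, so that WT replicate 1 was 15.8-fold above the median of the others. Kcng1 had 105, 187 and 276 in WT and 270, 387 and 185 in Sgo1-/+, and Kcns1, which had the highest level per kilobase of its subfamily just ahead of Kcns2 (79.9 against 79.7), had 74.0, 191 and 285 in WT and 213, 220 and 303 in Sgo1-/+. For these 2 genes the groups overlapped.

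Kcnc1, a fast channel of fast-spiking neurons, had 4327, 2081 and 2976 normalized counts in WT and 2378, 2548 and 3357 in Sgo1-/+. It was highest in WT replicate 1 and second highest in Sgo1-/+ replicate 3. Kcna1 and Kcnd2 varied less than Kcnc1. Kcna1 had 4743, 2800 and 3571 normalized counts in WT and 3590, 2985 and 3806 in Sgo1-/+. Kcnd2, an A-type channel of dendrites, had 1519, 1469 and 1942 in WT and 1538, 1789 and 1630 in Sgo1-/+. The groups overlapped in both genes.

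Of the inward rectifiers, Kcnj4 had 77.2, 1895 and 1961 normalized counts in WT and 1824, 1541 and 1085 in Sgo1-/+, and its ratio of 0.0423 in WT replicate 1 was the smallest of the 80 genes. Kcnj14, an inward rectifier known from motor nuclei of the brain stem, was at 96.7, 25.7 and 45.7 in WT and at 17.9, 27.2 and 26.6 in Sgo1-/+. Kcnj10 was at 6400 in WT replicate 1 and at 2356 to 3601 in the other libraries. Among subunits of G-protein-gated channels, Kcnj3, Kcnj6 and Kcnj9 were each lowest in WT replicate 1. They stood there at 1211, 82.2 and 875 against lowest values of 1520, 206.5 and 1143 elsewhere. Kcnj5, a further such subunit, was not lowest there, at 21.9 against 18.8 to 44.3 elsewhere. Gm26794 on the opposite strand overlaps 31.1% of the exon bases of Kcnj3.

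Kcnj13, an inward rectifier of the choroid plexus, and Kcne2, an auxiliary subunit also known from that epithelium, were high in 2 libraries of different genotype. Kcnj13 had 104, 30.1 and 9.94 normalized counts in WT and 9.60, 3.06 and 125 in Sgo1-/+. Kcne2 had 111, 19.5 and 4.06 in WT and 1.99, 1.01 and 145.5 in Sgo1-/+. Both were thus highest in Sgo1-/+ replicate 3, next in WT replicate 1 and then in WT replicate 2. The 7 choroid plexus markers summed to 21270, 7675 and 656 in WT and 1293, 402 and 24470 in Sgo1-/+, and Ttr alone was at 20030, 6757 and 349.5 in WT and 814.8, 113.5 and 21820 in Sgo1-/+. Folr1 of this list was at 0 in Sgo1-/+ replicate 2. The part of choroid plexus tissue in the values of these 2 genes was not tested. Gigyf2 on the opposite strand overlaps 49.1% of the exon bases of Kcnj13.

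**Figure D3:**
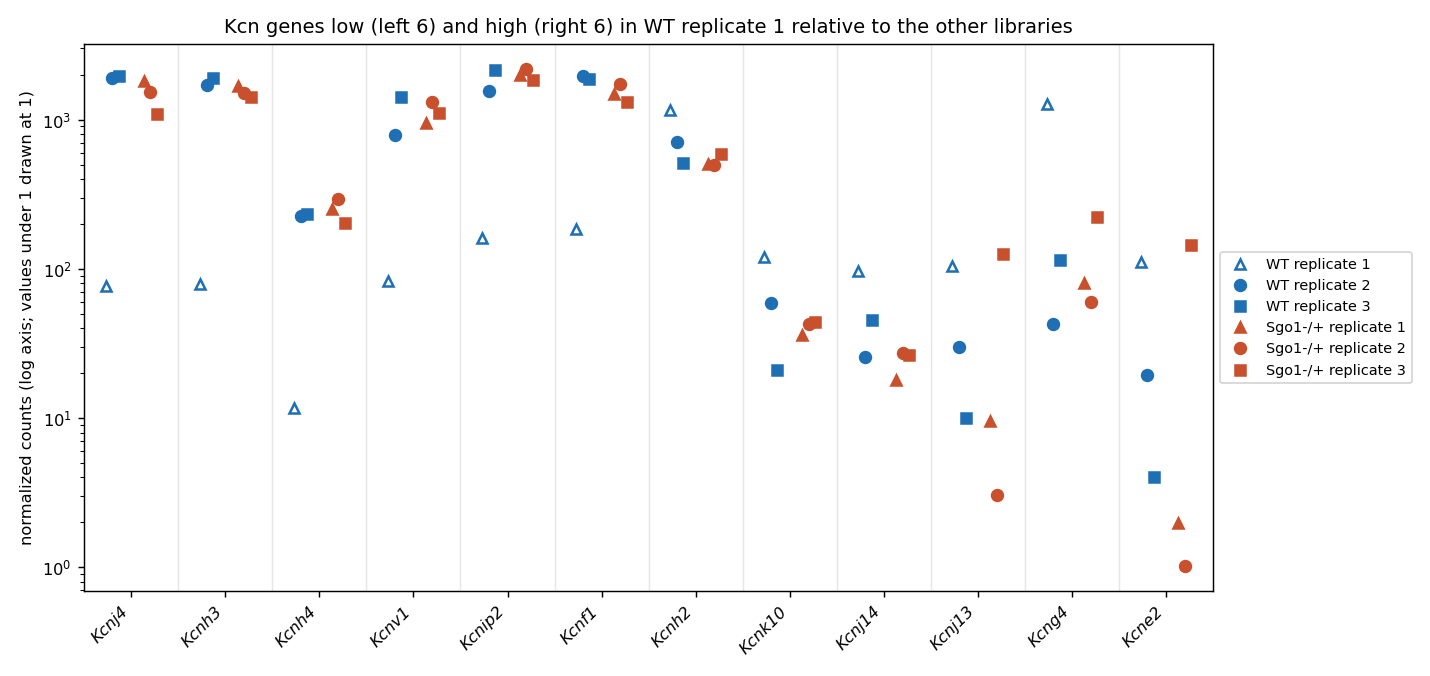
Normalized counts on a log axis in each library for 6 tested Kcn genes low and 6 high in WT replicate 1 (open triangle) relative to the others; blue is WT, red Sgo1-/+, and the marker shape gives the replicate number. The open triangle of Kcnj4 lies at 77.2 under values of 1085 to 1961, while for Kcne2 and Kcnj13 Sgo1-/+ replicate 3 (red square) stands above it.

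Of the two-pore-domain channels, Kcnk1 had 1366, 967 and 1261 normalized counts in WT and 1086, 1096 and 1397 in Sgo1-/+. Kcnk10, a leak channel that opens on stretch and by lipids, had 120, 58.7 and 21.01 in WT and 35.9, 42.6 and 44.0 in Sgo1-/+. Kcnk4, a related mechanosensitive channel, had 32.97, 68.9 and 99.3 in WT and 98.4, 75.5 and 163 in Sgo1-/+. The groups overlapped for each of the 3 genes. Kcnk15, a member not known to form a working channel by itself, was barely detected, at 4.03, 17.1 and 20.3 in WT and 14.9, 0 and 2.05 in Sgo1-/+, where the last 2 values are within the floor of 3 counts. Kcnk3, an acid-sensitive leak channel, was at 575 in WT replicate 1 and at 264 to 402 elsewhere.

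Of the 7 tested genes grouped as calcium- and sodium-activated channels, 1, Kcnt2, was at least 2-fold below the median of the others in WT replicate 1. At least 2-fold above it were 0. Kcnma1, the large-conductance channel gated by voltage and calcium, had 642, 1121 and 1296 normalized counts in WT and 1029, 1159 and 1065 in Sgo1-/+. Kcnn2, a small-conductance channel that follows calcium alone, had 427, 390 and 331 in WT and 374, 302 and 425 in Sgo1-/+. Kcnt1, a sodium-activated channel, had 2150, 1687 and 1484 in WT and 1668, 1664 and 1272 in Sgo1-/+, whereas its relative Kcnt2 was at 71.1 in WT replicate 1 and at 306 to 524 elsewhere. Kcnu1, known as a channel of sperm and placed in this class by its subfamily alone, had 18.1, 27.6 and 43.6 in WT. In Sgo1-/+ it had 41.2, 32.1 and 34.2. Of these 5 genes, none had groups that did not overlap.

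Of the tested auxiliary subunits, 1 was at least 2-fold above the median of the others in WT replicate 1, Kcne2, whose values were given with Kcnj13, and 1 at least 2-fold below, Kcnip2. Kcnip2 had 160, 1544 and 2142 normalized counts in WT and 1997, 2187 and 1834 in Sgo1-/+, with WT replicate 1 at 0.0800 of the median of the others. Kcnab2 had 4254, 5066 and 5425 in WT and 5520, 4797 and 6693 in Sgo1-/+. Kcnmb4, the neuronal partner of Kcnma1, had 212, 359 and 366 in WT and 379, 305.5 and 340 in Sgo1-/+, and 31.5% of its exon bases are shared with the opposite-strand genes Kcnmb4os1 and Kcnmb4os2. Kcnab2 and Kcnmb4 were both lowest in WT replicate 1 and overlapped between the groups. Kcnmb1, its partner in smooth muscle, had 6.04, 11.4 and 6.09 in WT and 21.9, 4.05 and 12.3 in Sgo1-/+, Kcne1l 132, 73.9 and 70.0 in WT and 67.6, 74.0 and 70.6 in Sgo1-/+, and Kcnrg, which hinders the assembly of Kcna channels and was too low to be tested, 6.30, 5.71 and 4.26 in WT and 5.96, 7.97 and 4.09 in Sgo1-/+.

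The comparison that the design implies is of Sgo1-/+ with WT, which asks how the mutant brain differs at old age. It was made with the quasi-likelihood test of edgeR on all 16337 genes with Benjamini-Hochberg adjustment. No Kcn gene had an adjusted p under 0.05, as no gene of the whole table did (0.0%), and the smallest adjusted p of a Kcn gene was 0.9999. At an unadjusted p under 0.05, 1 Kcn gene was higher and 2 were lower in Sgo1-/+, where 0.808% of all genes were higher and 1.23% lower (2.04% in both directions). By DESeq2 the counts were also 1 and 2 and by limma 1 and 1, again with 0 Kcn genes under the adjusted threshold. Among the tested members the groups did not overlap for 1 gene on the higher side and 2 on the lower, against 3.28% and 3.57% of all genes.

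Kcnab1, which speeds the inactivation of Kcna channels and is found in hippocampus and striatum, had 1720, 1610 and 1998 normalized counts in WT and 2372, 2583 and 2126 in Sgo1-/+. All 3 Sgo1-/+ values lay above all 3 WT values. The means were 1776 ± 200 (SD, n = 3) in WT and 2360 ± 229 in Sgo1-/+. The log2 fold change by edgeR was 0.41 with an SE of 0.131 (unadjusted p = 0.0168, adjusted p = 0.9999 after Benjamini-Hochberg), and 0.39 without WT replicate 1. Leaving out WT replicate 2 gave an unadjusted p of 0.0589, and leaving out Sgo1-/+ replicate 2 gave 0.0681. The 9 striatal markers found summed to 4449, 18240 and 23490 in WT and 29210, 34680 and 14720 in Sgo1-/+, and the 7 hippocampal markers to 675, 474 and 473.5 in WT and 449, 545 and 1657 in Sgo1-/+, and their part in the Kcnab1 values was not tested.

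Kcnd3, an A-type channel like Kcnd2, had 1288, 1313 and 1264 normalized counts in WT and 1152, 1111 and 1065 in Sgo1-/+. The groups did not overlap, and WT replicate 1 lay between its WT companions. The means were 1288 ± 24.2 (SD, n = 3) and 1109 ± 43.2. The edgeR log2 fold change was -0.22 with an SE of 0.0908 (unadjusted p = 0.0496, adjusted p = 0.9999 after Benjamini-Hochberg). It was -0.22 without WT replicate 1 and between -0.24 and -0.19 without any other library, where the unadjusted p was 0.069 to 0.156. Kcnj14, whose values were given with the inward rectifiers, had a log2 fold change of -1.22 (SE 0.508, unadjusted p = 0.0480, adjusted p = 0.9999 by edgeR), which became -0.57 (unadjusted p = 0.191) without WT replicate 1. Kcnh8, a member of the ether-a-go-go family, was the other gene whose groups did not overlap, at 19.8, 17.1 and 16.2 in WT and 15.9, 6.08 and 12.3 in Sgo1-/+, a gap of less than 1 count between the nearest values.

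**Figure D4:**
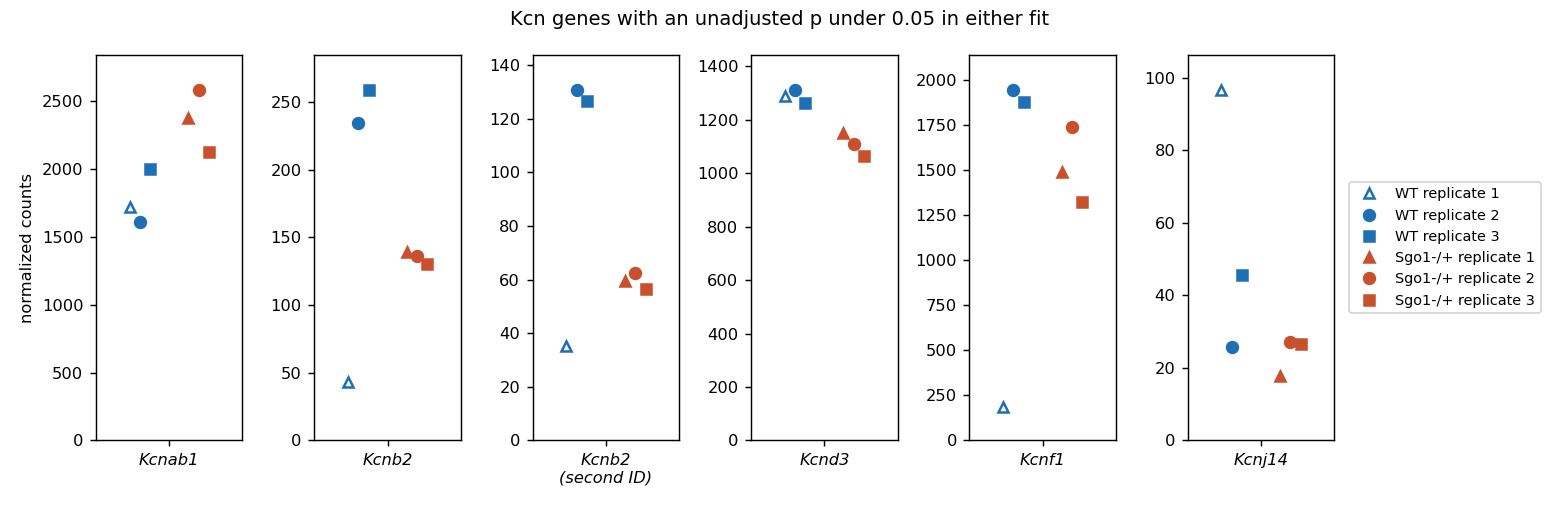
Normalized counts (linear axes from 0, 1 panel a gene) in each library for the Kcn genes with an unadjusted p under 0.05 with all libraries or without WT replicate 1 (open triangle); blue is WT, red Sgo1-/+. Kcnab1 and Kcnd3 have groups that do not overlap, while for Kcnb2 and Kcnf1 WT replicate 1 lies below every Sgo1-/+ value and the other WT libraries above.

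Without WT replicate 1, 81 Kcn genes were tested among 16617, and again none reached an adjusted p under 0.05 (0.0% of all genes; smallest adjusted p of a Kcn gene 0.9995 by edgeR). At an unadjusted p under 0.05, 1 gene was higher and 4 were lower, against 1.86% and 1.91% of all genes (3.77% in both directions). The groups did not overlap for 1 gene on the higher side and 9 on the lower, against 8.84% and 9.15%. The 9 lower genes were Kcnb2 under both identifiers, Kcnd3, Kcnf1, Kcng3, Kcnh3, Kcnh8, Kcnj4 and Kcnk15.

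The lowest unadjusted p belonged to Kcnb2, a delayed rectifier of the cell body. It was counted under ENSMUSG00000092083 (mm10, chr1:15287259-15714295, plus strand) and under ENSMUSG00000090498 (chr1:15712303-15716367, plus strand). The GENCODE M21 annotation has a single Kcnb2 gene there, and the second identifier is absent from it, so the 2 rows are not independent genes. The first had 43.3, 234.5 and 259 normalized counts in WT and 139, 136 and 130.5 in Sgo1-/+. The second had 35.1, 131 and 127 in WT and 59.4, 62.3 and 56.5 in Sgo1-/+. Under both, the 3 Sgo1-/+ libraries lay close together, below WT replicates 2 and 3 and above WT replicate 1.

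Summed over both identifiers, Kcnb2 was 78.4, 365 and 386 in WT and 198, 199 and 187 in Sgo1-/+, with a mean of 195 ± 6.62 (SD, n = 3) in Sgo1-/+ and of 376 over WT replicates 2 and 3. Without WT replicate 1 the edgeR log2 fold change was -0.86 with an SE of 0.146 (unadjusted p = 0.000491) for the first identifier and -1.11 with an SE of 0.198 (unadjusted p = 0.000673) for the second, both with an adjusted p of 0.9995. With all 6 libraries it was -0.40 (unadjusted p = 0.50) and -0.72 (unadjusted p = 0.170). The 5 olfactory bulb markers summed to 172, 1802 and 1422 in WT and to 818, 168 and 99.4 in Sgo1-/+, and all 5 were lower at an unadjusted p under 0.05 without WT replicate 1. All 7 oligodendrocyte markers were higher at that level, with sums of 143000, 54780 and 59340 in WT and 79310, 76820 and 135500 in Sgo1-/+. The part of either tissue in the Kcnb2 values was not tested.

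Kcnf1, which forms channels with Kcnb subunits, had an edgeR log2 fold change of -0.33 (SE 0.127, unadjusted p = 0.0330, adjusted p = 0.9995) without WT replicate 1 and of 0.18 (SE 0.717, unadjusted p = 0.805) with it. Kcnh3 was at -0.24 (SE 0.111) without that library and at 0.31 (SE 0.882) with it, and Kcnj4 at -0.38 (SE 0.196) and 0.18 (SE 0.910). The SE of each of these 3 genes was thus several times smaller without WT replicate 1. Across all genes the common biological coefficient of variation was 25.9% with and 17.6% without that library.

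The other named differences were of either sign and none passed the test. Kcng4 was at -1.98 (SE 1.20) on the log2 scale with all libraries and at 0.63 (SE 0.624) without WT replicate 1. Kcnk15 was at -1.26 (SE 1.07) and -1.69 (SE 0.998), Kcnk4 at 0.74 (SE 0.448) and 0.42 (SE 0.355), Kcnk10 at -0.71 (SE 0.563) and 0.02 (SE 0.440) and Kcnmb1 at 0.68 (SE 0.636) and 0.53 (SE 0.730). Kcnip2 was at 0.65 and 0.12, Kcnh4 at 0.67 and 0.12, Kcnv1 at 0.56 and 0.03, and Kcng1 at 0.57 and 0.28. All of these differences but that of Kcnk15 lay nearer to 0 without WT replicate 1. Of the 6 members with the highest levels per kilobase, Kcnip2 aside, Kcnj10 was at -0.55 and -0.07, Kcnj4 at the values given above, Kcnab2 at 0.21 and 0.11, Kcna1 at -0.10 and 0.12 and Kcnk1 at -0.01 and 0.10. Further members with the highest level per kilobase of their subfamily were Kcnd2 at 0.01 and -0.05, Kcnc1 at -0.18 and 0.13, Kcns1 at 0.42 and 0.05, Kcnma1 at 0.09 and -0.16, Kcnn2 at -0.06 and 0.02, Kcnt1 at -0.21 and -0.05, Kcnu1 at 0.27 and 0.02, Kcnmb4 at 0.13 and -0.09 and Kcne1l at -0.39 and -0.03.

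As a group the members showed no common direction. The median log2 fold change of the 80 tested genes was 0.08, with 45 above and 35 below 0, and that of all genes tested was -0.0007. Without WT replicate 1 it was 0.0039, with 41 above and 40 below 0. An absolute log2 fold change of at least 0.5 was found for 20 genes with all libraries and for 11 without WT replicate 1. Of the 80 genes, 36 took the other sign. The like shares over all genes were not counted, so these counts cannot be read as particular to Kcn genes. The common biological coefficient of variation of all genes also fell without that library, from 25.9% to 17.6%. By class the median was 0.06 over the Kv pore subunits (-0.06 without WT replicate 1), -0.02 over the inward rectifiers (-0.06) and -0.09 over the two-pore-domain channels (0.02). It was 0.27 over the calcium- and sodium-activated channels (0.02) and 0.14 over the auxiliary subunits (0.11). The 0.27 is the value of Kcnu1 itself, which had 18.1 to 43.6 normalized counts.

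**Figure D5:**
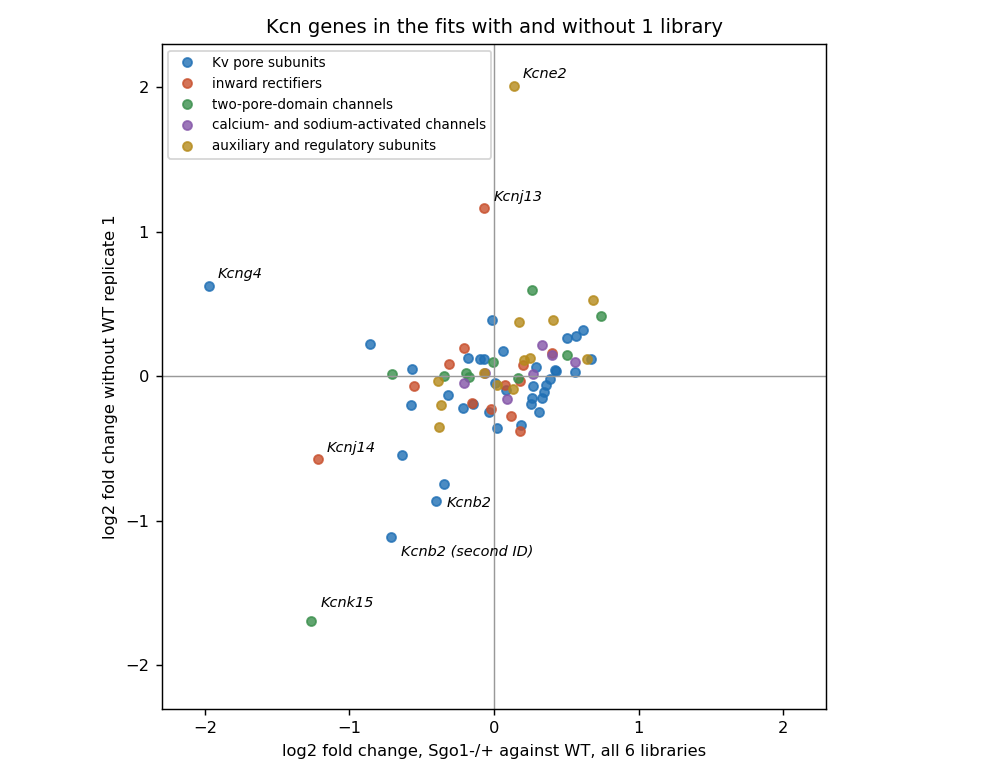
Each point is a tested Kcn gene, with its edgeR log2 fold change of Sgo1-/+ against WT from all 6 libraries on the x axis and without WT replicate 1 on the y axis, coloured by class. Points to the upper left and lower right of the zero lines, 36 of 80, took the other sign, a share not counted over all genes. Kcng4 lies at -1.98 and 0.63, and the labels mark genes far from 0.

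The 19 partner genes looked at included the Kcnd partners Dpp6 and Dpp10, the Kcnb partner Amigo1 and the related Hcn pacemaker channels. Of these 19, 18 were tested and none had an unadjusted p under 0.05 by edgeR, against 2.04% of all genes. Their median log2 fold change was -0.06. Without WT replicate 1, Dpp10 (-0.34, unadjusted p = 0.0253) and Lrrc55, a subunit of Kcnma1 channels (-0.47, unadjusted p = 0.0314), were lower at that level by edgeR. No partner was higher. Of all genes tested in that fit, 1.91% were lower and 1.86% higher at that level. Overlapping genes limit single values, since 27 members share exon bases with another gene and for 7 at least 10% are shared. Where counting ignores the strand, reads from the shared bases cannot be told apart. For pairs on the same strand, counting by strand would not separate them either. Kcnk4 shares 13.1% of its exon bases with Catsperz in this way.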

How the data were processed

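Brain RNA of 3 WT and 3 Sgo1-/+ mice was sequenced on an Illumina MiSeq from TruSeq V2 libraries. The authors aligned reads to mm10 with Strand NGS 2.1, the submitters' notes also name BWA and edgeR, and the deposited table holds estimated counts for each gene and library without normalization. Whether the counting used the strand is not given in the sources used here. The 6 normalized columns and the authors' columns of log2 fold change, ratio and signed score were not used.

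Columns were assigned to mice by the header's comparison and the replicate number, and the sex-linked genes fit the labelled sexes. Estimated counts were rounded and fitted with edgeR 4.0.16 in R 4.3.3 (TMM, default filter on low counts, quasi-likelihood test, no covariates, Benjamini-Hochberg over all genes tested). The SE is the log2 fold change divided by the square root of F. Nothing states that the mice came from different litters, so p-values measure the spread between these 6 mice. Exon lengths and overlaps come from GENCODE M21 (GRCm38). The fits were tested on simulated data whose means and spread came from the 5 libraries other than WT replicate 1. This did not cover the larger spread that WT replicate 1 brings to the fit of all 6 libraries.

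Values in every library are given for members with an unadjusted p under 0.05 with all libraries or without WT replicate 1, the 10 largest fold changes, the highest per kilobase of each subfamily, and the 5 with the largest ratio of highest to second highest library. Some members that this rule names are not reported here. Further members were given with levels only, after their values were seen. The members, classes and marker lists were chosen with earlier results of these data known. Alternatives were DESeq2 1.42.0, limma 3.58.1 (DESeq-normalized counts plus 1, on a log2 scale), size factors of DESeq2 in the edgeR fit, the filter off or set to 10 counts in each library, a term for sex, a replicate block, and leaving out each library in turn.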

Additional observations from a re-analysis of the deposited data

How the results depend on the processing

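With every alternative run, 0 Kcn genes had an adjusted p under 0.05, and the smallest adjusted p of a Kcn gene was 0.764, without WT replicate 3. At an unadjusted p under 0.05 the higher count of 1 became 3 with sex as a covariate and 0 to 5 with 1 library left out: 0 without WT replicate 2 or Sgo1-/+ replicate 2, and 5 without WT replicate 3, where 6.21% of all genes were under that level in either direction against 2.04% with all libraries. The lower count of 2 became 1 with limma (Kcnd3), with no filter on low counts or with sex as a covariate (Kcnj14), and with the replicate block (neither of these), and 0 to 4 with 1 library left out: 4 without WT replicate 1 (3.77% of all genes in either direction) or 3, 1 without Sgo1-/+ replicate 1 and 0 without Sgo1-/+ replicate 2. The median log2 fold change of the auxiliary subunits was -0.084 to 0.30 and that of the two-pore-domain channels -0.31 to 0.022 with 1 library left out. The medians over all Kcn genes and over the other classes moved by less than their spread between libraries. That spread takes in WT replicate 1. As an SD it was 0.49 over the Kv pore subunits and 0.30 over the calcium- and sodium-activated channels. The median of the latter fell from 0.27 to 0.02 without WT replicate 1 and still counted as within it.

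For the 29 named genes with a fold change, 357 of 375 alternatives kept the direction. The 18 that did not each left out 1 library, WT replicate 1 for 12 of them, and concerned 12 genes, whose log2 fold changes with 1 library left out were -0.26 to 0.12 for Kcna1, -0.40 to 0.13 for Kcnc1, -0.067 to 0.15 for Kcnd2, -0.33 to 0.56 for Kcnf1, -2.76 to 0.63 for Kcng4, -0.24 to 0.78 for Kcnh3, -0.085 to 0.26 for Kcnmb4, -0.16 to 0.30 for Kcnma1, -0.18 to 0.053 for Kcnn2, -0.38 to 0.59 for Kcnj4, -0.14 to 0.10 for Kcnk1 and -1.13 to 0.017 for Kcnk10. The ends in the direction opposite to the full fit came from leaving out WT replicate 1, except for Kcnd2, whose lowest value came without WT replicate 2, and Kcnn2, whose highest came without Sgo1-/+ replicate 2. The cause was not tested.

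Mice of the same replicate number did not deviate together (r of their deviations over genes -0.146, 0.014 and -0.207). Between mice of different numbers r was -0.229 to 0.295. These values cannot tell whether the numbers pair mice, since differences in tissue between libraries enter them as well. The replicate block gave 1 higher and 1 lower Kcn gene at an unadjusted p under 0.05 by edgeR (1.71% of all genes). These were Kcnc2 and Kcnip1, named after their values were seen. None of the 3 genes under that level without the block was among them, with Kcnab1 at an unadjusted p of 0.0526, Kcnd3 at 0.112 and Kcnj14 at 0.128. With 3 mice a group and totals near those given above, members with few counts, such as Kcnk15 and Kcnmb1, had an SE of the order of their fold change.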

Other observations

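Some members were highest in Sgo1-/+ replicate 3 or came second there after WT replicate 1. Kcns3, a silent subunit, had 121, 48.5 and 75.1 normalized counts in WT and 47.7, 68.9 and 127 in Sgo1-/+. Kcnc2, a fast channel of interneurons, had 659.5, 1003 and 1419 in WT and 1199, 1235 and 1934 in Sgo1-/+, and Kcnk13, a two-pore-domain channel of microglia, had 181.5, 78.1 and 126 in WT and 113, 137 and 212 in Sgo1-/+. In the same library the 8 thalamic markers summed to 5116, against 1007 to 3425 in the others, and the 7 hippocampal markers to 1657, against 449 to 675. Their part in these values was not tested.

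Among the untested members, Kcna7, a channel known mainly from muscle, had 25.5 normalized counts in WT replicate 1 and 0.993 to 10.95 in the other libraries, and Kcnk5, a two-pore-domain channel of epithelia, had 26.2 in WT replicate 1 and 3.81 to 16.9 in the others. Kcnj15, an inward rectifier, had 15.2 in WT replicate 3 and 0 to 6.14 in the others. These low values carry no test in the main fit or in that without WT replicate 1. Kcna7 was tested in some alternatives. Without WT replicate 3 it was lower in Sgo1-/+ at an unadjusted p under 0.05 by edgeR, as 6.21% of all genes were in either direction. These 3 genes were chosen after their values were seen.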
